A study of Zea mays with 9 samples.

Results

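Among 39656 gene identifiers counted in maize seedlings, 20 were near silent in the inbred line B73 and expressed in the line carrying the p1 allele P1-ww714. They were chosen by CPM, the count of a gene divided by the total of its library and multiplied by 1000000. A gene entered when its mean over the 3 B73 libraries was under 2 CPM, when each of the 3 P1-ww714 libraries held at least 1 CPM, and when each held at least 2 times the highest B73 value. The B73 and P1-ww714 values therefore chose the genes and are given here as a description. The libraries of the heterozygote, P1-ww714/B73, took no part in the choice.

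Seedlings aged 14 days, grown under 15 h light and 9 h dark, gave 3 RNA libraries for each of 3 genotypes. B73 is the inbred line of the maize reference genome, P1-ww714 is read here as carrying 2 copies of that allele of p1 (GRMZM2G084799) and P1-ww714/B73 as carrying 1, although the labels do not state that P1-ww714 is homozygous. As background that the labels do not give, P1-ww714 is linked to a tandem duplication of a chromosome 1 segment that has an end at p1, so most genes of that segment differ in dose among the genotypes. The labels do not say how the P1-ww714 stock was bred or what it carries elsewhere in the genome, so an effect of the allele and a difference elsewhere between the stocks cannot be told apart. Nothing states that replicates came from different plants, and the spread between libraries may be technical. In bulk seedlings, fewer cells expressing a gene and less RNA per cell cannot be told apart either.

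Inbred lines of maize are known to differ widely in gene content and in which alleles are transcribed, and a gene may be on in a given inbred and off in another. Where a silent allele meets an active allele in a hybrid and each allele keeps its own activity, the hybrid stands at the linear mean of its parents, which is a share of 0.5 of the way from the silent to the active parent. The product of p1 is a MYB protein that activates genes of red phlobaphene pigment synthesis. Counts of p1 itself were at most 1 in a B73 library, at most 2 in the heterozygote and at most 11 in P1-ww714, too few to test.

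Library totals ran from 9486044 to 16189684 counts. All 5 leaf genes that could be matched by symbol, those of C4 carbon fixation and Rubisco, were detected, with a summed level between 34519 and 43939 CPM per library. Of 23 zein genes, which store protein in the endosperm, 20 had 0 counts in every library. P1-ww714/B73 replicate 1 stood apart in histone genes, with a summed level of 9 of them of 360 CPM against 643 to 925 CPM elsewhere. The summed level of 15 heat shock genes ran from 1612 CPM in that library to 2672 CPM in P1-ww714 replicate 3. The next highest, P1-ww714/B73 replicate 3, was near at 2453 CPM.

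B73 means under 2 CPM were found for 19763 identifiers, many of them silent everywhere, and 1072 of these held at least 1 CPM in each P1-ww714 library. Only the 20 genes, 1.87% of the 1072, also kept the ratio to the highest B73 value. Their ratios of the lowest P1-ww714 value to the highest B73 value began at 2.04 for GRMZM2G173965, 2.08 for GRMZM2G476593 and 2.15 for GRMZM2G417082. The nearest genes left out were GRMZM2G451308 at 1.89, AC233899.1_FG005 at 1.86 and GRMZM2G145440 at 1.71, so the smallest members differ little from genes that were not taken. The number chosen also changed with single libraries, since 42 genes met the rule when B73 replicate 1 was left out, 30 when P1-ww714 replicate 1 was and 29 when B73 replicate 2 was. Part of this rise follows from the rule, whose ratio then has fewer values to meet. Added together, the 20 genes held 14.6, 14.4 and 5.58 CPM in the B73 libraries, 85.7, 73.1 and 86.0 CPM in the heterozygote and 153, 155 and 190.5 CPM in P1-ww714.

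**Figure D1:**
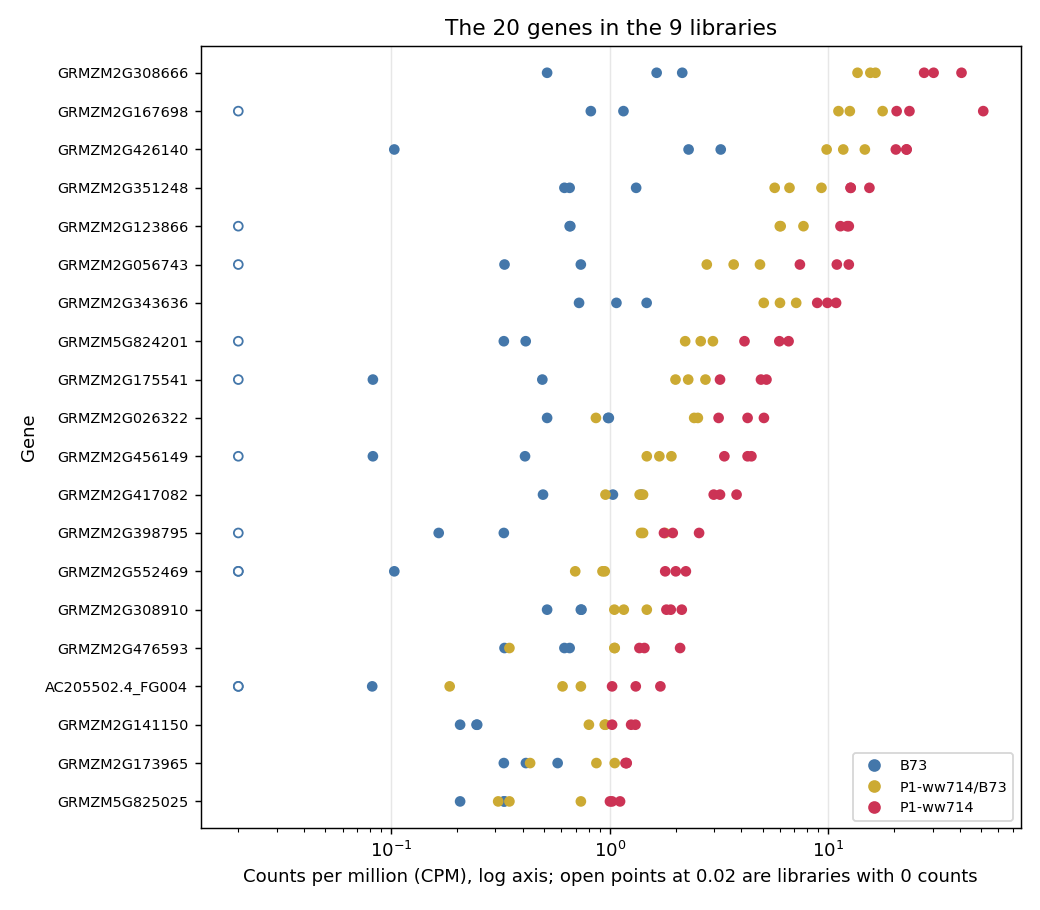
Level of each of the 20 genes in all 9 libraries, in CPM on a log axis, coloured by genotype, with open points for libraries at 0 counts. Heterozygote libraries lie above every B73 library for 15 genes and below every P1-ww714 library for 19.

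Names were scarce. A RefSeq gene table for another B73 assembly, Zm-B73-REFERENCE-NAM-5.0, held 2 of the 20 identifiers (10%), against 69.7% of tested genes and 49.2% of the 1072 genes that met the first 2 conditions. No role is given here for the other 18, which carry an identifier only. Neither of the matched genes has a gene symbol beyond its locus name.

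The first of them, GRMZM2G308666 (LOC100382263, protein coding), lies on chromosome 1 within the run of higher genes that is read here as the duplicated segment. It held 1.64, 2.15 and 0.517 CPM in B73, 16.4, 15.6 and 13.6 CPM in the heterozygote and 30.3, 27.4 and 40.7 CPM in P1-ww714. The 3 genotypes did not overlap. That run holds 131 tested genes in the order of the RefSeq assembly, located from their folds in P1-ww714 against B73. Its bounds enclose p1, with 2 of its genes before p1 and 129 after it. GRMZM2G308666 is number 108. Only 2 of the 20 genes could be placed in that assembly, and of these only GRMZM2G308666 lies in the run. Whether any of the unplaced genes lie there is not known. The P1-ww714 mean of GRMZM2G308666 was 22.9 times its B73 mean. Its log2 fold in P1-ww714 against B73 was 4.50, where the other 130 genes of the run had a median of 0.93 and a highest value of 2.66. The rule chose it for this fold, so the gap to unchosen genes is a description. Of the 3 tested genes on either side of it, GRMZM2G144868, GRMZM2G101689 and GRMZM2G101744 were higher in P1-ww714 by 0.83, 0.94 and 0.93 on the log2 scale (edgeR quasi-likelihood test, Benjamini-Hochberg adjusted p = 0.0326, 0.000688 and 0.00207). The other neighbours did not pass that test. GRMZM2G144995 stood at 1.02 (adjusted p = 0.277), GRMZM2G091648 at 0.85 (adjusted p = 0.478) and GRMZM2G009232 at -0.29 (adjusted p = 0.951). A B73 mean under 2 CPM was found for 8 of the 131 genes of the run.

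The second, GRMZM2G123866, matched a pair of loci on chromosome 2 that RefSeq lists as transcribed pseudogenes, LOC103645745 and LOC103645746. Counts for such a pair may come from either copy. Counts were 8, 8 and 0 in B73, 69, 98 and 73 in the heterozygote and 186, 133 and 198 counts in P1-ww714, which gave means of 0.439 ± 0.380, 6.58 ± 0.965 and 11.99 ± 0.551 CPM (SD, n = 3). Within the heterozygote and within P1-ww714 the libraries lay close together, and the groups were well apart. Only 5 tested genes precede it on its chromosome in that assembly. The 3 tested genes on each side of it had log2 folds between -0.07 and 0.40 in P1-ww714 against B73, and none of them passed the test (GRMZM5G876379 at 0.40 had adjusted p = 0.565). Here too the gene was chosen for its fold and its neighbours were not, so nothing is read from the contrast.

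The largest differences were shared by 12 genes whose P1-ww714 mean was at least 10 times the B73 mean, among them GRMZM2G308666 and GRMZM2G123866. Of the remaining 10, GRMZM2G167698 held 0.820, 1.16 and 0 CPM in B73, 11.1, 12.5 and 17.7 CPM in the heterozygote and 20.5, 23.5 and 51.1 CPM in P1-ww714. Its P1-ww714 replicate 3 stood at more than 2 times each of the other P1-ww714 libraries, and the cause was not tested. GRMZM2G426140 held 2.29, 3.22 and 0.103 CPM in B73, 14.7, 9.82 and 11.7 CPM in the heterozygote and 22.8, 22.8 and 20.4 CPM in P1-ww714. Here the B73 libraries disagreed, with 28, 39 and 1 counts, and without B73 replicate 3 the B73 mean was 2.76 CPM and the gene no longer met the rule. GRMZM2G351248 held 0.656, 1.32 and 0.621 CPM in B73, 9.30, 5.68 and 6.64 CPM in the heterozygote and 15.4, 12.6 and 12.7 CPM in P1-ww714. All of these genes had separate ranges in the 3 genotypes.

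At intermediate levels, GRMZM2G056743 held 0.738, 0.330 and 0 CPM in B73, 4.87, 2.78 and 3.69 CPM in the heterozygote and 7.41, 10.9 and 12.4 CPM in P1-ww714. GRMZM5G824201 held 0.328, 0.413 and 0 CPM, 2.61, 2.96 and 2.21 CPM, and 5.97, 6.58 and 4.13 CPM in the same order of genotypes. GRMZM2G175541 held 6, 1 and 0 counts, then 23, 37 and 26 counts, then 75, 61 and 51 counts. Each of them was at 0 in B73 replicate 3, and none had a heterozygote library inside the range of either parent. GRMZM2G456149 held 5, 1 and 0 counts in B73, 17, 31 and 16 in the heterozygote and 51, 50 and 71 counts in P1-ww714. GRMZM2G398795 held 4, 2 and 0 counts in B73, 16, 23 and 17 in the heterozygote and 27, 30 and 31 counts in P1-ww714. This last gene was the single one of the 20 whose heterozygote range reached into that of P1-ww714, with 1.79 CPM in P1-ww714/B73 replicate 3 against 1.77 CPM in P1-ww714 replicate 1.

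A single B73 count underlay the folds of the other two. GRMZM2G552469 held 0, 0 and 1 counts in B73, 8, 15 and 9 in the heterozygote and 34, 21 and 32 counts in P1-ww714. Pooled over libraries and scaled by their totals, P1-ww714 was 68.9 times B73, with an exact 95% interval from counting alone of 12.04 to 2752. AC205502.4_FG004 held 1, 0 and 0 counts in B73, 7, 3 and 7 in the heterozygote and 26, 12 and 21 counts in P1-ww714. Its pooled ratio was 46.7, with an interval of 8.07 to 1876. The lower bounds are what these counts can carry, and the intervals cover counting error only. No gene had 0 counts in all 3 B73 libraries.

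The remaining 8 genes differed by less than 10-fold between the means of P1-ww714 and B73. GRMZM2G343636 was the clearest, with 1.48, 1.07 and 0.724 CPM in B73, 7.13, 5.06 and 6.01 CPM in the heterozygote and 9.90, 10.8 and 8.90 CPM in P1-ww714. GRMZM2G026322 held 0.983, 0.991 and 0.517 CPM in B73, 2.43, 0.865 and 2.53 CPM in the heterozygote and 3.15, 4.27 and 5.07 CPM in P1-ww714. Its heterozygote replicate 2 lay inside the B73 range, unlike the other two. GRMZM2G417082 held 1.39, 0.495 and 1.03 CPM in B73, 0.956, 1.42 and 1.37 CPM in the heterozygote and 3.80, 2.99 and 3.19 CPM in P1-ww714, so the heterozygote stayed near B73. GRMZM2G308910 held 0.738, 0.743 and 0.517 CPM, 1.48, 1.05 and 1.16 CPM, and 1.90, 2.14 and 1.82 CPM in B73, the heterozygote and P1-ww714. GRMZM2G141150 held 3, 3 and 2 counts in B73, 11, 13 and 9 in the heterozygote and 20, 12 and 20 counts in P1-ww714. In both of these the genotypes kept separate ranges at low levels.

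The last 3 were the weakest. GRMZM2G476593 held 8, 4 and 6 counts in B73, 4, 17 and 10 in the heterozygote and 32, 16 and 23 counts in P1-ww714. GRMZM2G173965 held 4, 7 and 4 counts, 10, 7 and 10 counts, and 18, 14 and 19 counts. GRMZM5G825025 held 4, 4 and 2 counts, 4, 5 and 7 counts, and 17, 12 and 16 counts. In each of these 3 genes at least 1 heterozygote library lay within or below the range of B73. They are also the 3 genes that did not pass the test in P1-ww714 against B73 (edgeR adjusted p = 0.20, 0.271 and 0.115). That comparison chose the genes, so the 17 of 20 called higher, against 0.652% of all 22544 tested genes, are printed as a description. All 20 passed the filter on low counts, which the rule's floor of 1 CPM in 3 libraries nearly ensures.

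The heterozygote gives the view that the rule did not use. Its mean lay between the parental means for 20 of 20 genes. The gap that the rule sets between the parents makes this likely, and the share over all tested genes was not counted. At 1 CPM or more in all 3 heterozygote libraries stood 12 of the 20 genes (60%), which is close to the 55.8% of the other 1052 genes with a B73 mean under 2 CPM and at least 1 CPM in each P1-ww714 library. Presence at that level alone therefore does not set these genes apart. Every heterozygote library was above every B73 library for 15 genes, against 2.22% of tested genes, and below every P1-ww714 library for 19 genes, against 3.89%. Both held for 14 genes, against 0.59% of tested genes. Part of these counts follows from the choice of genes that are low in B73 and high in P1-ww714.

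In P1-ww714/B73 against B73, 7 of the 20 genes were higher in the edgeR test with adjustment over all 22544 genes, against 0.111% of tested genes, and 0 were lower. An unadjusted p under 0.05 was found for 16 genes, where 585 of all tested genes reached it in either direction. DESeq2 called 10 of the 20 higher, against 0.259% of the genes it tested, and 0 lower. Since the B73 libraries helped to choose the genes, this test is not independent on the B73 side. GRMZM2G308666 was higher by 3.40 ± 0.33 on the log2 scale (standard error, adjusted p = 0.00671), GRMZM2G343636 by 2.49 ± 0.26 (0.00671), GRMZM2G351248 by 3.07 ± 0.32 (0.00671) and GRMZM2G123866 by 3.84 ± 0.43 (0.00783). These 4 genes kept an adjusted p under 0.05 without any single library, at 0.0390 or less. The calls of GRMZM2G167698 (4.32 ± 0.60, adjusted p = 0.0313), GRMZM5G824201 (3.33 ± 0.50, 0.0403) and GRMZM2G552469 (4.51 ± 0.69, 0.0482) were less firm. GRMZM2G167698 kept its call in 3 of 9 fits that left out a library, with adjusted p up to 0.143, and the other two in 0 of 9, with adjusted p up to 0.184 and 0.242. When only B73 and the heterozygote entered the fit, no gene of the 20 passed and 13 had an unadjusted p under 0.05. The share over all tested genes was not counted for that fit.

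Among genes not called in the heterozygote, GRMZM2G417082 stood at 0.43 ± 0.36 on the log2 scale (adjusted p = 1.0), and its 95% interval ran from -0.37 to 1.22. GRMZM2G426140 stood at 2.67 ± 0.48 (adjusted p = 0.0905), with an interval of 1.60 to 3.73, its B73 libraries being the ones that disagreed. Over the 20 genes the median log2 fold was 3.08, with a range of 0.43 to 4.51, beside a median of -0.001 over all tested genes.

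On the linear scale between the parents, with B73 at 0 and P1-ww714 at 1, the heterozygote stood at a median of 0.44 over the 20 genes. With each heterozygote library alone the median was 0.47 in replicate 1, 0.42 in replicate 2 and 0.50 in replicate 3, so the library that stood apart for histone genes lay between the others. Values between 0.4 and 0.6 were found for 11 genes, as in GRMZM2G351248 (0.50), GRMZM2G175541 (0.51), GRMZM2G426140 (0.51), GRMZM2G123866 (0.53) and GRMZM2G308666 (0.44). Lower values were found for 7 genes, with the lowest 0.12 in GRMZM2G417082, 0.23 in GRMZM5G825025 and 0.26 in GRMZM2G476593, all of low counts. Not all of the 7 had low counts. GRMZM2G056743, with 439 counts summed over the P1-ww714 libraries, stood at 0.35, and its 3 heterozygote libraries at 0.46, 0.24 and 0.34. Higher values were found for GRMZM2G398795 (0.71) and GRMZM2G141150 (0.69). The 3 heterozygote libraries fell on both sides of 0.5 for 12 genes, all below it for 6 and all above it for those 2. Only 6 of the 20 means were above 0.5. The scale uses the parental values that chose the genes. A P1-ww714 mean that is high partly by that choice lowers the share, and a B73 mean that is low partly by it raises the share. The net effect was not tested. In the run read here as the duplicated segment, 81 genes were called higher in P1-ww714 than in B73. Their median on the same scale was 0.45. These 81 genes, GRMZM2G308666 among them, were also chosen by their parental values. The same limit therefore holds for their median, and nothing is read from its nearness to 0.44.

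**Figure D2:**
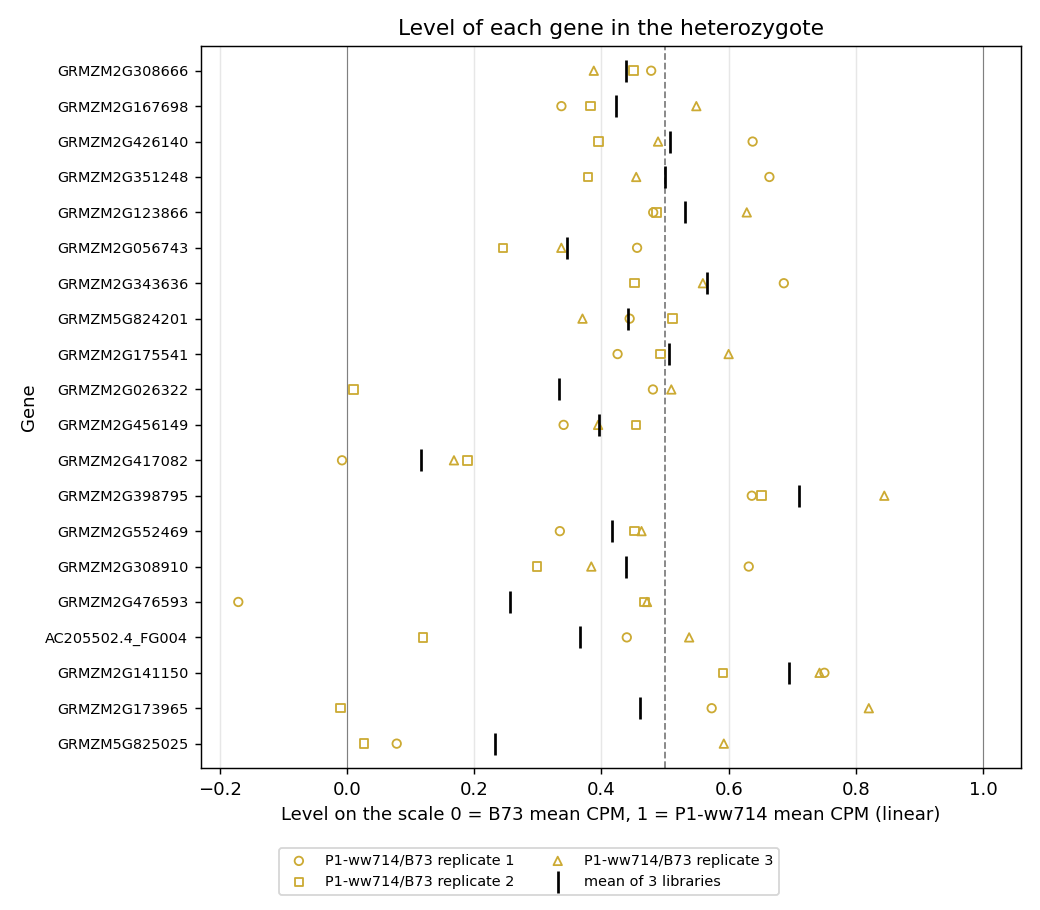
Level of each gene in the 3 heterozygote libraries and their mean, on a linear scale where 0 is the B73 mean and 1 the P1-ww714 mean, with a dashed line at 0.5. Of the 20 means, 11 lie between 0.4 and 0.6, while GRMZM2G417082 stands near B73 at 0.12.

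P1-ww714 against P1-ww714/B73 sets the line against its heterozygote. If the line carries 2 active alleles of a gene that is silent in B73, and each acts alone, the log2 fold is 1. Whether it does so at these genes is not shown by the labels or the counts. The median of the 20 genes was 1.01, with a range of 0.41 to 1.49, beside a median of 0.007 over all tested genes. By edgeR 0% of the tested genes were called higher here, and none of the 20 was called. An unadjusted p under 0.05 was nevertheless found for 16 of the 20 (680 of all tested genes had one). DESeq2 called 2 of the 20 higher, GRMZM2G308666 (adjusted p = 0.0199) and GRMZM2G056743 (adjusted p = 0.0473), against 0.0559% of the genes it tested. The P1-ww714 libraries helped to choose the genes, which raises these folds.

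The 95% interval of the fold in this comparison held 1 and not 0 for 16 of the 20 genes, against 0.914% of tested genes. Of the others, GRMZM2G426140, GRMZM2G398795, GRMZM2G141150 and GRMZM2G173965 had intervals that held both values, so at this depth an equal level and a 2-fold level were both compatible with the counts. GRMZM2G308666 had 1.10 with an interval of 0.53 to 1.66 and GRMZM2G351248 had 0.90 with an interval of 0.37 to 1.42. GRMZM2G056743 had 1.44 with an interval of 0.61 to 2.27. For each of these 3 genes the interval is wider than a doubling of the level. Where B73 was not fully silent, the linear mean of the parents gives less than 1, from 0.55 in GRMZM2G173965 to 0.98 in GRMZM2G552469. The intervals held that gene-specific value for 19 of the 20. The exception was GRMZM2G417082, whose interval of 0.70 to 2.08 lay above its value of 0.63, with the heterozygote closer to B73 than the mean of the parents. This gene was singled out after its values were seen, and no adjustment for the 20 intervals was made.

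**Figure D3:**
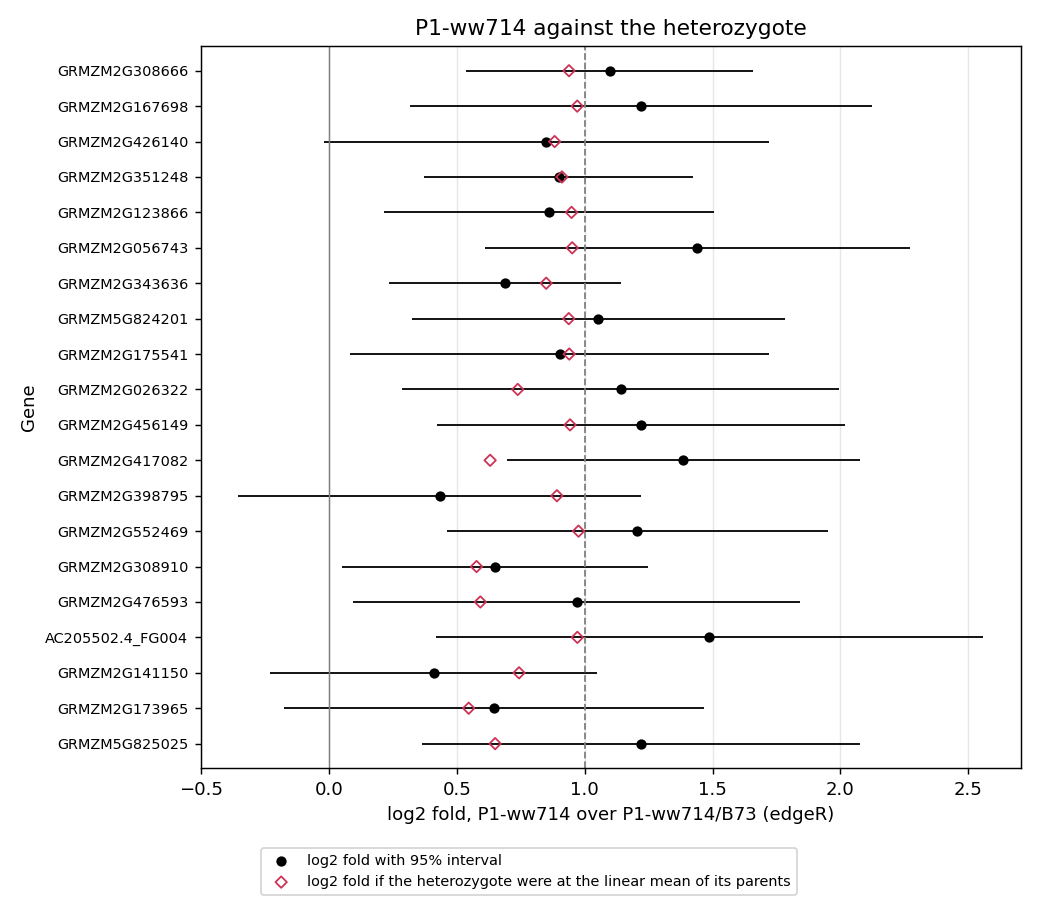
Fitted log2 fold of P1-ww714 over the heterozygote with its 95% interval for each gene (points and lines), and the log2 fold that the linear mean of the parents would give (diamonds). The interval of GRMZM2G417082 alone leaves its diamond outside, and 16 intervals lie above 0 while holding 1.

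The residual level in B73 differed between libraries. As a percentage of the P1-ww714 mean, the median over the 20 genes was 10.8% in B73 replicate 1, 8.81% in replicate 2 and 3.07% in replicate 3. Replicate 3 was strictly the lowest for 15 of the 20 genes, and 8 genes had 0 counts there, against 1 and 2 in replicates 1 and 2. Over all 22544 tested genes replicate 3 was the lowest of the B73 libraries for 32.9%, and over the other 1052 genes with a B73 mean under 2 CPM and at least 1 CPM in each P1-ww714 library for 48.5%. Among all tested genes 12 had 0 counts in replicate 3, 4 in replicate 1 and 3 in replicate 2. Over the whole table, 62 identifiers were at 0 in replicate 3 with at least 4 counts in both other B73 libraries, against 5 and 15 for replicates 1 and 2. The same count within the other genotypes ran from 4 to 81 in the heterozygote libraries and from 11 to 46 in P1-ww714, so 62 was not the highest. The 8 members at 0 in replicate 3 held 47 and 35 counts in replicates 1 and 2 and 3100 counts in P1-ww714. Totals were 12201558, 12114433 and 9668982 counts, and the limit that a count of 0 allows, 3 counts, is 0.246, 0.248 and 0.310 CPM in the same order. Not all members shared this pattern. GRMZM2G173965 stood at 27.6%, 48.6% and 34.8% of its P1-ww714 mean, and GRMZM2G476593 at 40.1%, 20.2% and 37.9%, with replicate 3 in the middle of both. GRMZM5G825025 stood at 31.3%, 31.5% and 19.7%, and GRMZM2G426140 at 10.4%, 14.6% and 0.471%, with replicate 3 the lowest of both. The cause of the difference between the B73 libraries was not tested.

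**Figure D4:**
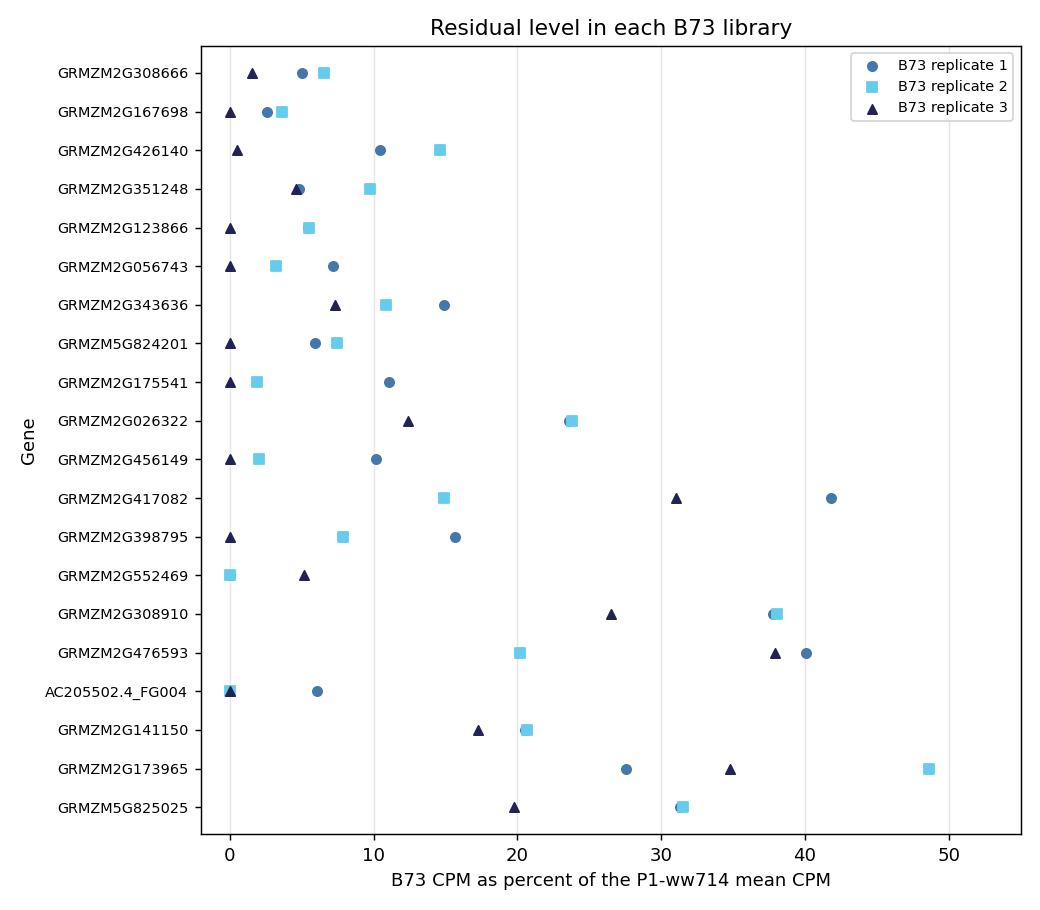
Level of each gene in each B73 library as a percentage of its P1-ww714 mean. Replicate 3 is at 0 for 8 genes, while GRMZM2G173965 stands at 27.6% to 48.6% in the 3 B73 libraries.

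The reverse rule, with B73 and P1-ww714 exchanged, gave 19 genes. Their summed level was 71.1 ± 3.11 CPM in B73, 41.1 ± 4.31 CPM in the heterozygote and 11.3 ± 0.751 CPM in P1-ww714 (SD, n = 3 per group). The sum over the 20 genes was 11.5 ± 5.13 CPM in B73, 81.6 ± 7.35 CPM in the heterozygote and 166 ± 21.1 CPM in P1-ww714. On the scale from the silent to the active parent the heterozygote median of the reverse set was 0.48, with a range of 0.26 to 1.05, against 0.12 to 0.71 for the 20 genes. Of the reverse set 8 of 19 identifiers (42.1%) were found in the RefSeq table, against the 2 of 20 here. These differences between the sets are given without a test.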

How the data were processed

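RNA from 9 seedling samples was compared. The authors deposited raw counts for each gene identifier, and the submitters' processing notes name TopHat and HTSeq. Versions, genome build, annotation, strand setting: not given in the sources used here. Counts of similar or overlapping genes are therefore uncertain. No coordinates are printed. Columns were matched to samples by name, and marker genes by symbol or synonym in the RefSeq table. Gene sequences were not used here.

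CPM for the rule and the shares used raw column totals. The tests used edgeR 4.0.16 in R 4.3.3, with filterByExpr (minimum count 10, 22544 genes kept), TMM scaling, 1 quasi-likelihood fit over all 9 libraries and Benjamini-Hochberg adjustment at 0.05. Standard errors and 95% intervals came from the fold and its F value. DESeq2 1.42.0, RLE scaling, no filter, a replicate block, fits of 2 groups, other limits of the rule and leaving out each library were alternatives. The procedure was tested on simulated counts. Replicates of a group differed by a chi-square of 6.35 to 18.5 per gene, above sampling noise. All 20 members are named. To find the duplicated segment, tested genes were set in order along chromosome 1, every fold in P1-ww714 against B73 was limited to -1 to 2 on the log2 scale and lowered by 0.5, and the stretch with the highest total over even positions was taken. The starch enzyme gene zpu1, first matched as a zein by its symbol, was left out. The rule, the lists and the segment were chosen with earlier results of these data known, and the split at 10-fold, the gene-specific linear mean and the look at neighbours were chosen after the values were seen.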

Additional observations from a re-analysis of the deposited data

How the results depend on the processing

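The number of genes chosen was 12 when each P1-ww714 library had to hold 2 CPM, 14 at 4 times the highest B73 value, 17 at a B73 mean under 1 CPM and 19 with TMM-scaled CPM, and every one of these was among the 20. Leaving out single libraries gave 20 to 42 genes, most without B73 replicate 1, when 22 more genes met the rule. The heterozygote libraries are not in the rule, and without a B73 or P1-ww714 library its ratio has fewer values to meet. Of the genes then chosen, 12 to 22 held 1 CPM in every heterozygote library used. The median share of the heterozygote ran from 0.393 without P1-ww714 replicate 1 to 0.492 without P1-ww714/B73 replicate 2. Genes higher in the heterozygote than in B73 numbered 4 at an adjusted p under 0.01, 12 without the filter, 0 with only both groups in the fit and 4 to 6 without single libraries. Those higher in P1-ww714 than in B73 numbered 11 to 17 without single libraries, lowest without B73 replicate 2. The cause of these changes was not tested. For P1-ww714 against the heterozygote DESeq2 called 2 genes where edgeR called 0. RLE scaling changed none of the counts of calls. With the replicate block the counts of calls were 6, 15 and 0 for the 3 comparisons and 15 intervals held 1 and not 0. No pairing of the numbers is stated. Same-numbered libraries had correlations of their deviations from -0.17 to 0.55, over 0.1 in 4 of 9 pairs. Differently numbered libraries of different genotypes had correlations from -0.39 to 0.26. These values do not settle whether the numbers mark pairs. Standard errors of P1-ww714 against the heterozygote ran from 0.21 to 0.49 on the log2 scale.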
